A study of Mus musculus with 12 samples.

Results

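Cytokine genes of the interleukin 1, interleukin 27 and TNF groups, and 3 non-coding genes that lie opposite some of them, were followed in macrophages that had been grown from mouse bone marrow in the growth factor M-CSF. The cytokine genes were Il1a, Il1b, Il1rn, Ebi3, Tnf, Il6 and Il12b. The opposite-strand partners were Gm14023 for Il1a, Il1bos for Il1b and Gm16712 for Ebi3. These 10 symbols were taken by name, with earlier results of these data known, from the 24552 gene symbols of the deposited count table.

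Each of 4 groups had 3 libraries of polyadenylated RNA, labelled as biological replicates, and all 12 came from cells cultured with 10 ng/ml M-CSF until day 6. Cells then received vehicle (DMSO) or ISRIB at 50 nM for 1 h. In the M1 groups, LPS at 10 ng/ml and IFN-γ at 25 ng/ml followed for 16 h with vehicle or ISRIB still present, and the M0 groups carry no stated stimulus. Strain, genotype, sex, age and the number of animals behind each replicate number are not given in the sources used here, so p-values measure the spread between these libraries, which may be partly technical. ISRIB is a small molecule that counteracts the integrated stress response, the pathway in which phosphorylated eIF2 slows translation, and the title of the series names that pathway's part in macrophage inflammation as its question.

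Interleukin 1α and interleukin 1β are pro-inflammatory ligands of a common receptor, and the product of Il1rn is the antagonist that occupies the same receptor without signalling. In macrophages, LPS acts through Toll-like receptor signalling and NF-kB to induce the genes for interleukin 1, TNF, interleukin 6 and the p40 chain encoded by Il12b, and IFN-γ enhances that response. Ebi3 encodes the subunit that pairs with p28 (Il27) to form interleukin 27. The 3 partner genes are annotated as non-coding transcripts, and no function is assumed for them here.

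Libraries held 439976 to 514037 counts, and levels are given as CPM, which are counts relative to the library's total after TMM scaling, with a single count equal to 1.79 to 2.57 CPM. All 8 macrophage markers examined had counts, with summed levels of 439 to 829 CPM in M0 and 288 to 635 CPM in M1. Lyz2 had the highest mean, 153 counts, and Mertk the lowest, 2.75, and the lowest count of Mertk and of Fcgr1 was 0. Csf1r, with 34 counts on average, lies opposite Hmgxb3 with 564. Markers of T and NK cells and of stroma had no counts. Summed markers of neutrophils, B cells, erythroid cells and mast cells or basophils reached 9.62, 8.32, 32.4 and 3.75 CPM at most in any library. Of 4 dendritic cell markers, Flt3 and Zbtb46 were at 0 in all libraries, and the summed list stood at 10.7 to 35.6 CPM in M0 and 832 to 1065 CPM in M1, nearly all of it Xcr1 with 202 counts on average. The part of Xcr1 in the results was not tested. In bulk RNA, fewer cells of a type and less RNA per cell cannot be told apart. The libraries are strand-specific per the labels, whereas the strand setting of the counting is not given in the sources used here. Of 24030 symbols matched to the GENCODE M21 annotation, 24.1% had an exon overlapping an exon of an opposite-strand gene, and these held 92.3% of all counts.

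The stretches in which partner and cytokine exons overlap are shown first, because reads from them cannot be assigned to 1 gene of a pair without the strand. Il1a lies at chr2:129299610-129309972 on the minus strand and Gm14023 at chr2:129297370-129307826 on the plus strand (GRCm38). They share 222 bases, chr2:129306471-129306692, between coding exon 4 of 7 of Il1a and the last exon, exon 5, of Gm14023. Ebi3, at chr17:55952640-55957022 on the plus strand, shares 155 bases of its coding exon 4 of 5, chr17:55956185-55956339, with Gm16712, at chr17:55954771-55959381 on the minus strand, and a further 115 bases in its UTR that are not printed. Il1b (chr2:129364570-129371139, minus strand) meets Il1bos (chr2:129369897-129375748, plus strand) only in 25 bases, chr2:129369897-129369921, that belong to a non-coding Il1b transcript. Each run below reads in the direction of the cytokine gene, with bases shared with the partner's exon in capitals.
Il1a exon 4: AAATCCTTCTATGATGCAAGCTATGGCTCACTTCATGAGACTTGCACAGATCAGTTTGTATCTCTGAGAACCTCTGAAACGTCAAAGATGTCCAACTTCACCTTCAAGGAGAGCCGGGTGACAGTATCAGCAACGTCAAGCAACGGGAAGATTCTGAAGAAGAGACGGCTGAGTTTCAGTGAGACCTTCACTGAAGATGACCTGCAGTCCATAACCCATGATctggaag
Ebi3 exon 4: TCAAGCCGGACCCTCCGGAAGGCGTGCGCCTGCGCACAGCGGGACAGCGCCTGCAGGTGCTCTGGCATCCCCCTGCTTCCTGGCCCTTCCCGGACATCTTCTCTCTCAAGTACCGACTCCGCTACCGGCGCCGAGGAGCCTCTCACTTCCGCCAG
Il1b non-coding transcript, with 10 bases on each side: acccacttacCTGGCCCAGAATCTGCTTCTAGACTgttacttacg

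The overlap covered 11.2% of the exonic bases of Il1a, 23.4% of those of Ebi3 and 1.31% of those of Il1b. Among the partners it covered 12.5% of Gm14023 and 0.839% of Il1bos. Gm16712 was covered over 26.4%, including 248 bases shared with Ccdc94, which had 5.92 counts on average. Il1rn (chr2:24336853-24351494), Tnf (chr17:35199381-35202007), Il6 (chr5:30013114-30019981) and Il12b (chr11:44400063-44414033) had no exon overlapping a gene on the other strand. The map of exons by distance from each cytokine's start shows where the shared stretches lie.

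**Figure D1:**
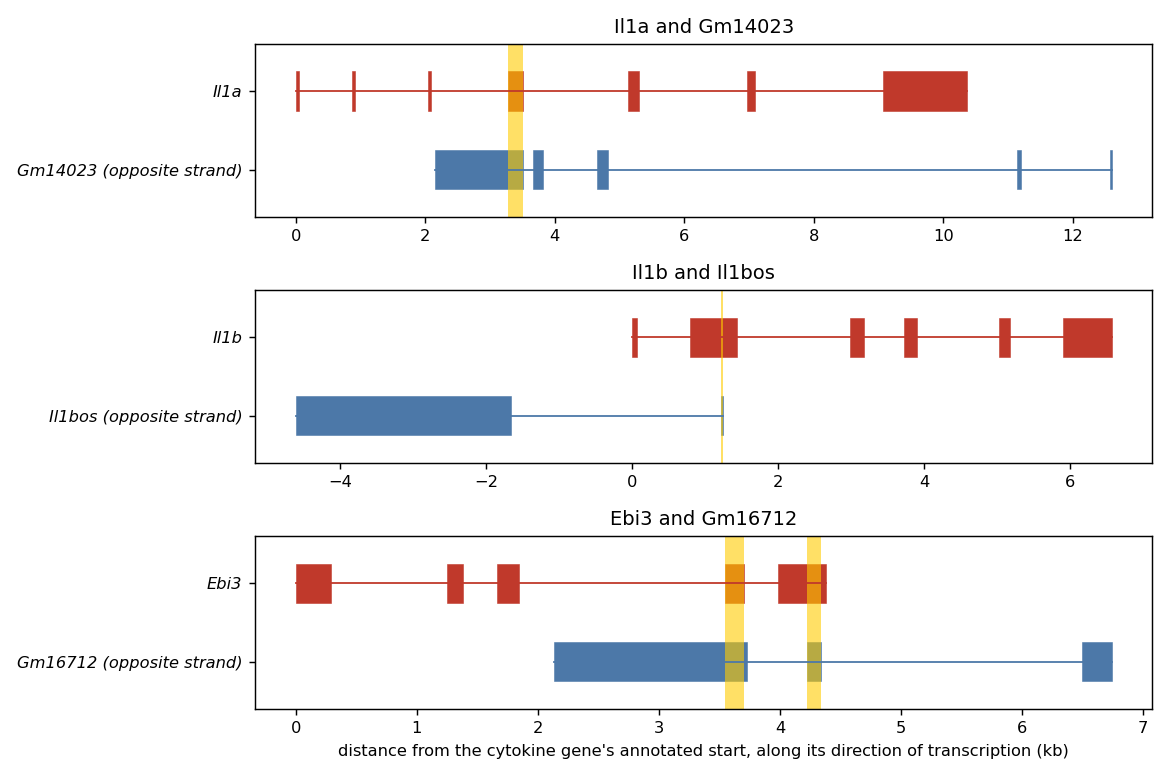
Exons (boxes) of the 3 cytokine genes and their opposite-strand partners, with distance in kb from the cytokine's annotated start on the horizontal axis and 1 row per gene. Yellow bands mark exon bases shared by both strands, which come to 222 for Il1a, 25 for Il1b and 270 for Ebi3.

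Promoters were read from RefSeq (GRCm38.p6) over the 250 bases before each annotated start, where all 10 genes had at least 1 entry. They were searched on both strands for NF-kB (GGG, any 2 bases, TTTCC), AP-1 (TGANTCA), C/EBP (TTGCNNAA), STAT (TTCNNNGAA) and ISRE (GAAA, any 2 bases, GAAA) motifs. Among 32851 RefSeq promoters these letters occurred in 1.41%, 6.75%, 9.56%, 7.02% and 2.98%. Gm14023, Il1rn, Il1b and Tnf are printed as genes with more counts in M1, to set a window with a match beside windows without one. Capitals mark the match, a STAT match that starts 30 bases before Gm14023 and an AP-1 match that starts 141 bases before the Il1rn start, and bases inside annotated exons were left out.
Gm14023, chr2:129297213-129297369, plus strand: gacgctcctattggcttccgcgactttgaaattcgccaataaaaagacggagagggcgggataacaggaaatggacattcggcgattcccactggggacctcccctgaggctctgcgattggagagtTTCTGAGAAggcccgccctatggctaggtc
Il1rn, chr2:24336610-24336852, plus strand: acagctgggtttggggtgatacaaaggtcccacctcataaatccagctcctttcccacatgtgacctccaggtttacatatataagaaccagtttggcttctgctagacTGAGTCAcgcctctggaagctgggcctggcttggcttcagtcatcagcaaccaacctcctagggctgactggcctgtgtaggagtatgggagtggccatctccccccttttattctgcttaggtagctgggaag
Il1b, chr2:129371140-129371389, minus strand: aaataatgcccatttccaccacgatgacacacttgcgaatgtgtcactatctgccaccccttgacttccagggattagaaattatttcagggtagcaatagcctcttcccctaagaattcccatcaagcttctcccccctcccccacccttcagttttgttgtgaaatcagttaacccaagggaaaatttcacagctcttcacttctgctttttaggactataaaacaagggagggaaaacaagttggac
Tnf, chr17:35202008-35202257, minus strand: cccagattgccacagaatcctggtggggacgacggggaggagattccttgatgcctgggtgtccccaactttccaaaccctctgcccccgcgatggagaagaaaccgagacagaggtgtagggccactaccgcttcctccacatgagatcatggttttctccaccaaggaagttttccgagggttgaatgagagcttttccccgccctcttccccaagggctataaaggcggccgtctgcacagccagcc

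Il1rn has 3 RefSeq entries, of which the first is printed and another held an NF-kB match (GGGTTTTTCC). The Il1a window held an AP-1 match (TGACTCA) and that of Il1bos 2 STAT matches, while Ebi3, Gm16712 and Il12b held none. Neither the Il1b nor the Tnf window held any of the 5 motifs, which says only that these letters are absent from this window. The Il6 window held 3 of them, an NF-kB match (GGGATTTTCC), an AP-1 match (TGAGTCA) and a C/EBP match (TTGTGCAA), although Il6 had counts in only 1 library. A match here is a description of the sequence and not evidence of binding.

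Polarization to the M1 state raised both symbols of the Il1b pair and the antagonist Il1rn, while at the Il1a and Ebi3 loci the rise was called at the symbol of the non-coding partner. Because the counter's strand setting is unknown, counts at a symbol of a pair may stem from reads of the other strand's gene where exons overlap. With a reversed setting the symbols of a pair would be exchanged there. Outside such overlaps, a reversed setting would leave a gene's own reads uncounted at its symbol. That applies also to genes with no overlap, such as Il1rn and Tnf, and was not tested. Of the 10 genes, 6 had enough counts for the model fitted across all genes (edgeR's quasi-likelihood test on 2356 genes, Benjamini-Hochberg adjusted, threshold 0.05). Of these 6, the same 5 were called higher in M1 than in M0 under vehicle and under ISRIB, namely Gm14023, Gm16712, Il1bos, Il1b and Il1rn, and none was called lower. The background was 24.3% of tested genes called higher under vehicle and 23.9% under ISRIB, and 44.8% called in either direction under each treatment. Il1bos, Il1b and Il1rn passed the filter on low counts through their M1 libraries alone, so that their count adds no support. As the 10 genes were chosen with earlier results of these data known, the count of 5 is a description. Levels differed between the states without overlap of any of 6 M1 and 6 M0 libraries for those 5 genes and for Tnf, against a background of 19.7% of tested genes.

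**Figure D2:**
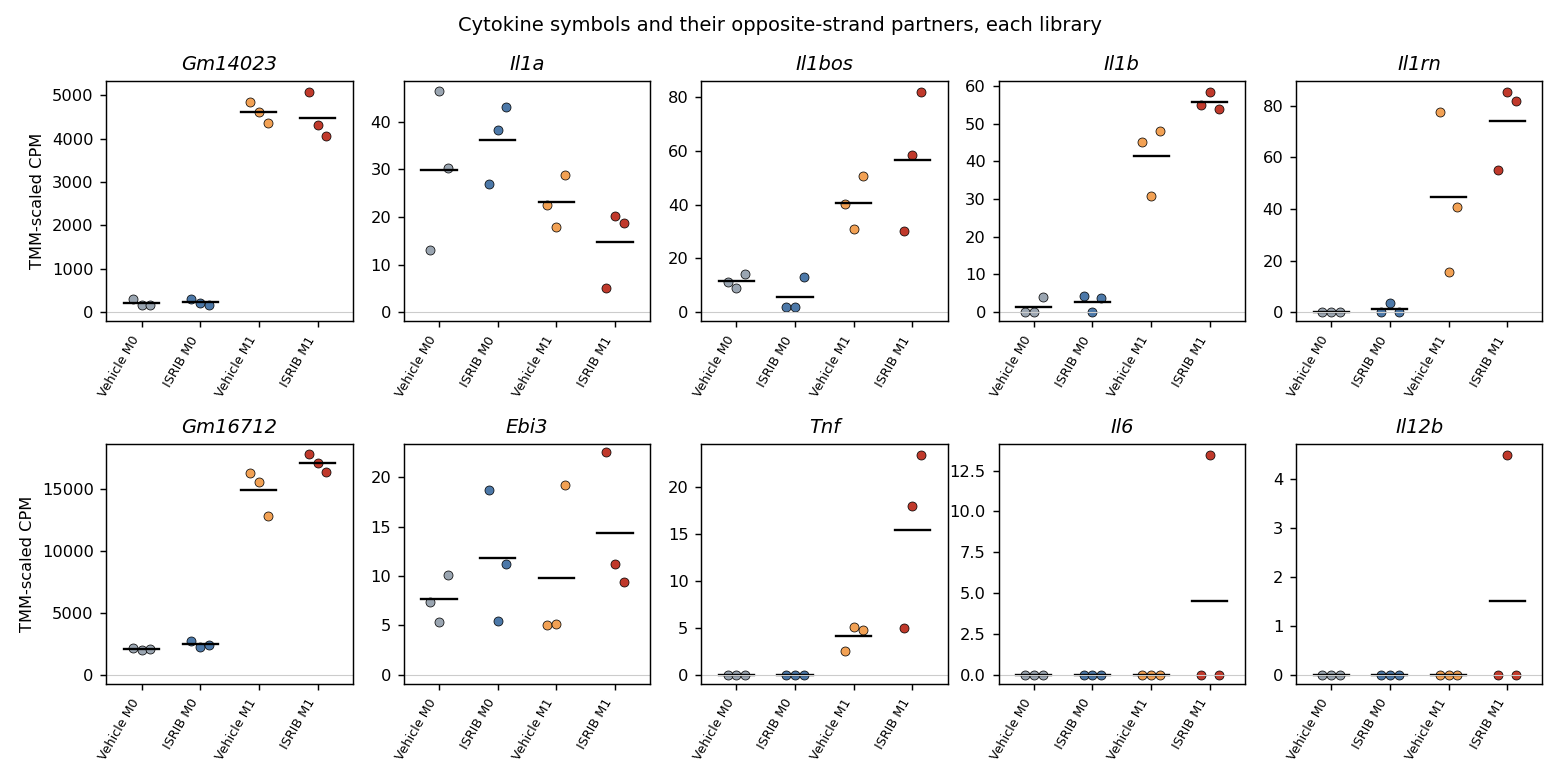
TMM-scaled CPM (vertical axis, linear, with its own range in each panel) of the 10 genes in each library, with 1 point per library, a bar at the mean of 3 and the 4 groups along the horizontal axis. The M1 points lie above all M0 points for Gm14023, Il1bos, Il1b, Il1rn, Gm16712 and Tnf, and overlap them for Il1a and Ebi3.

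At the Il1a locus the counts lay on Gm14023. This symbol had 163, 97 and 79 counts in vehicle M0 against 1939, 1801 and 1816 in vehicle M1. With ISRIB it had 146, 113 and 86 in M0 against 2035, 1921 and 1732 in M1. Every M1 library was far above every M0 library, and the treatments overlapped. Mean levels were 212 ± 78.3 CPM (SD, n = 3) in vehicle M0 and 4617 ± 246 CPM in vehicle M1. The log2 fold change was 4.44 ± 0.20 (SE, edgeR adjusted p = 1.04e-15) under vehicle and 4.33 ± 0.20 (adjusted p = 1.81e-15) under ISRIB.

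Counts at the symbol Il1a, the gene for the membrane-associated and alarmin form of interleukin 1, did not follow those at Gm14023. Whether reads of Il1a were counted at Gm14023 was not tested. Vehicle libraries had 7, 26 and 15 counts in M0 against 9, 7 and 12 in M1, and ISRIB libraries 13, 21 and 23 in M0 against 2, 9 and 8 in M1. The groups overlapped, and the lowest value was an ISRIB M1 library. The log2 fold change was -0.37 ± 0.64 (95% interval -1.69 to 0.95, edgeR adjusted p = 0.667) under vehicle and -1.28 ± 0.66 (-2.64 to 0.08, adjusted p = 0.121) under ISRIB. Without replicate 2 of vehicle M0 the vehicle value turned to 0.12. Over both treatments the mean was 18.9 ± 7.85 CPM (SD, n = 6) in M1 and 33.04 ± 12.3 CPM in M0, a difference of -14.1 CPM (two-sided exact permutation test, p = 0.0433, adjusted over the 10 genes 0.0618). The adjusted p fell to 0.0278 when libraries were scaled by total count to 0.0397 with the replicate number as a block, and to 0.0408 without the libraries numbered 1, and rose to 0.408 without those numbered 2.

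The split of counts between both symbols therefore moved. In M0, Il1a had 105 counts beside 684 at Gm14023, which is 13.3% of the pair (exact Clopper-Pearson 95% interval 11.02 to 15.9%). In M1 it had 47 beside 11244, or 0.416% (0.306 to 0.553%). Such intervals and the floors used here take in counting error alone, because reads had no molecular identifiers, and single libraries ranged from 4.12% to 21.1% in M0. The sum of both symbols does not depend on how reads in the shared bases were divided. Outside those bases it still depends on the strand setting, and in M1 it is nearly all Gm14023, so it mostly repeats that result. The sum rose in M1 by 4.26 ± 0.17 on the log2 scale under vehicle (edgeR adjusted p = 9.03e-17) and 4.12 ± 0.17 under ISRIB (adjusted p = 1.81e-16).

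Il1b encodes the secreted interleukin 1 that is matured by caspase-1. Under vehicle the counts were 0, 0 and 2 in M0 against 18, 12 and 20 in M1, and under ISRIB they were 2, 0 and 2 in M0 against 22, 26 and 23 in M1. No M0 library exceeded 2 counts and no M1 library fell under 12. The group means were 1.35 ± 2.34 and 41.3 ± 9.21 CPM (SD, n = 3) for vehicle M0 and M1, and 2.64 ± 2.29 and 55.7 ± 2.34 CPM for ISRIB M0 and M1. With 2 counts in all of vehicle M0, the ratio of scaled counts was 33.05 with a counting interval of 8.68 to 280. The fitted log2 fold change was 4.76 ± 0.95 (edgeR adjusted p = 0.000200) under vehicle and 4.30 ± 0.86 (adjusted p = 0.000217) under ISRIB.

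Il1bos, the opposite-strand transcript at Il1b, was counted at a level like that of the cytokine in M1. Under vehicle, M0 libraries had 6, 5 and 7 counts and M1 libraries 16, 12 and 21, and under ISRIB these were 1, 1 and 7 and 12, 26 and 35. The states did not overlap, but the ISRIB M1 libraries spread over nearly the whole range of M1. The log2 fold change was 3.25 ± 0.73 (edgeR adjusted p = 0.000663) under ISRIB. Under vehicle it was 1.81 ± 0.68 (adjusted p = 0.0310), and that call was lost without replicate 1 or 2 of vehicle M0 (adjusted p = 0.0671 and 0.0864), without replicate 1 or 3 of vehicle M1 (0.0587 and 0.0987), and with no filter on low counts (0.143).

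In M1 the pair's counts were divided evenly, 121 at Il1b and 122 at Il1bos, with 49.8% at Il1b (Clopper-Pearson 95% interval 43.3 to 56.3%). In M0 there were 6 at Il1b and 27 at Il1bos, or 18.2% (6.98 to 35.5%). The summed pair rose by 2.67 ± 0.53 under vehicle (edgeR adjusted p = 0.000193) and 3.72 ± 0.56 under ISRIB (adjusted p = 4.89e-06) on the log2 scale. Il1b and Il1bos share fewer exonic bases, 25, than the genes of the other pairs.

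**Figure D3:**
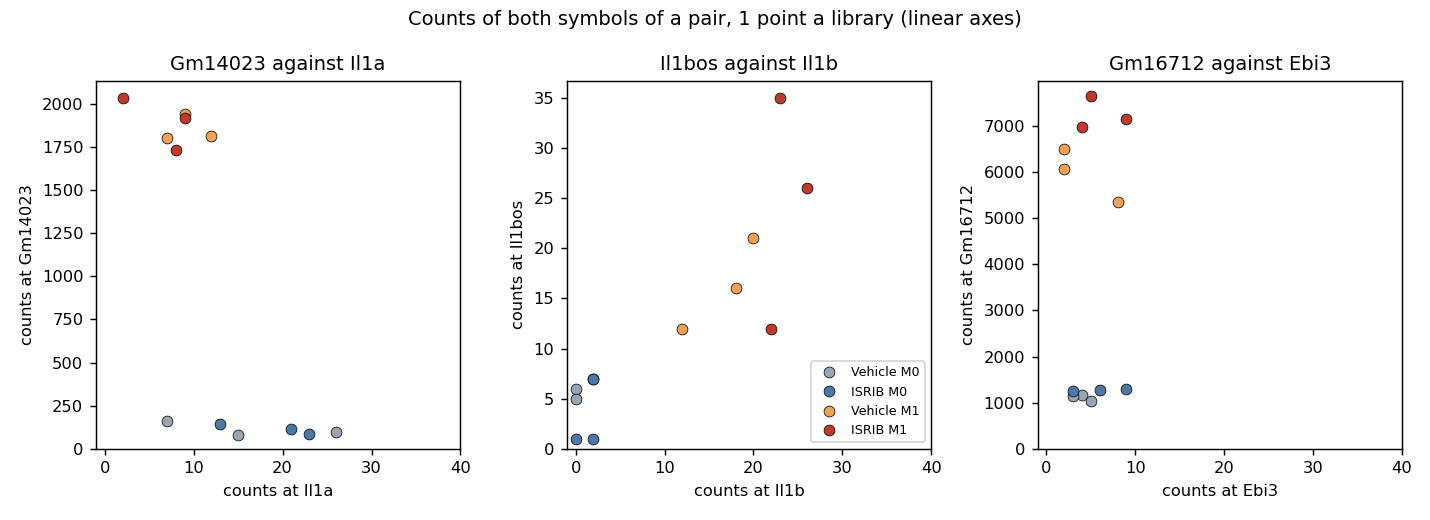
Raw counts at the partner (vertical axis) against raw counts at the cytokine gene (horizontal axis, 0 to 40 in each panel) for the 3 pairs, 1 point per library and linear axes, with a vehicle M0 and an ISRIB M0 library coinciding in the Il1b panel. Il1b and Il1bos both reach higher counts in M1, whereas M1 libraries at the other loci move up the partner's axis with no gain at Il1a or Ebi3.

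Il1rn, which encodes the interleukin 1 receptor antagonist, had no opposite-strand overlap. Its 3 vehicle M0 libraries had no counts against 31, 6 and 17 in vehicle M1, and ISRIB libraries had 0, 2 and 0 in M0 against 22, 38 and 35 in M1. All M1 libraries were above all M0 libraries, and replicate 2 of vehicle M1 was low among them. Levels were 44.6 ± 31.3 CPM (SD, n = 3) in vehicle M1 and 74.1 ± 16.6 CPM in ISRIB M1. The vehicle M1 mean of Il1rn was 7.87-fold a floor of 3 counts in each vehicle M0 library (edgeR adjusted p = 2.86e-05). Such folds over a floor leave out the spread between M1 libraries. Under ISRIB the ratio of scaled counts was 58.4 with a counting interval of 15.7 to 489, and the adjusted p was 2.74e-05.

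At the Ebi3 locus nearly all counts lay on Gm16712, the most abundant of the 10 symbols. Vehicle M0 libraries had 1177, 1135 and 1045 counts against 6507, 6076 and 5348 in vehicle M1, and ISRIB M0 libraries had 1299, 1251 and 1284 against 7158, 7645 and 6987 in ISRIB M1. In scaled units the 4 groups did not overlap, in the order vehicle M0, ISRIB M0, vehicle M1 and ISRIB M1. Means were 2110 ± 75.2 and 14923 ± 1822 CPM (SD, n = 3) in vehicle M0 and M1. The log2 fold change was 2.82 ± 0.11 (edgeR adjusted p = 2.75e-17) under vehicle and 2.80 ± 0.11 (adjusted p = 3.12e-17) under ISRIB.

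Ebi3 was too low for the model across genes. Its counts were 4, 3 and 5 in M0 and 2, 2 and 8 in M1 under vehicle, and 9, 3 and 6 in M0 and 9, 5 and 4 in M1 under ISRIB, so that the groups overlapped. Its 30 counts in M0 equalled its 30 counts in M1, and the scaled ratio of M1 to M0 was 1.27 with a counting interval of 0.742 to 2.19. Means of 12.1 ± 7.29 CPM in M1 and 9.72 ± 5.02 CPM in M0 (SD, n = 6) did not differ beyond their spread (two-sided exact permutation test, p = 0.539, adjusted 0.674). Ebi3 held 0.415% of the pair's counts in M0 (Clopper-Pearson 95% interval 0.280 to 0.593%) and 0.0755% in M1 (0.0509 to 0.108%). The summed pair changed as Gm16712 did, by 2.82 ± 0.11 under vehicle (edgeR adjusted p = 2.77e-17). Il27, whose product p28 pairs with the Ebi3 subunit, averaged 0.417 counts per library and was not tested. It shares 103 exonic bases with Apobr on the other strand, which averaged 148 counts.

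Tnf, Il6 and Il12b were also too low for that model. Tnf, the gene for tumour necrosis factor, had no counts in any of the 6 M0 libraries, and M1 libraries had 1, 2 and 2 under vehicle and 2, 8 and 10 under ISRIB. Every M1 library thus had counts where no M0 library had, although 4 of the 6 held only 1 or 2. With both treatments pooled, the mean was 9.80 ± 8.66 CPM in M1 (SD, n = 6), and the exact permutation test gave p = 0.00216, the smallest value that 6 against 6 libraries allow, and 0.00361 adjusted over the 10 genes. The M1 mean of Tnf was 1.71-fold the floor of 3 counts per M0 library over both treatments and 2.68-fold that floor under ISRIB. The vehicle M1 level of 4.15 ± 1.44 CPM lay under that floor, so no fold is given there. These folds leave out the spread between M1 libraries and hold only if each count is a separate event, which was not tested. Of the values from 1 to 10 in the whole table, 66.3% were even.

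Il6 had 6 counts in replicate 2 of ISRIB M1, and Il12b had 2 counts in the same library. Both were at 0 in the other 11 libraries, where a count of 0 allows up to 5.37 to 7.71 CPM. With counts in only 1 library, the exact permutation test gives the same result for every division of the libraries, so it could not test either gene. Changes in Il6 and Il12b were not detectable with these counts.

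Levels per kb of exon, taken at the symbols as deposited, were higher at Gm16712 and Gm14023 than at the cytokine symbols by far more than the replicate spread. They assume that reads of a symbol come from all its exons on its own strand, which was not tested, and would not compare these genes under a reversed strand setting. In vehicle M1, Gm16712 stood at 7614 ± 930 CPM per kb and Gm14023 at 2592 ± 138 (SD, n = 3). Then came Il1b at 21.7 ± 4.83, Il1bos at 13.6 ± 3.30, Il1a at 11.7 ± 2.76, Ebi3 at 8.49 ± 7.08, Il1rn at 8.06 ± 5.65 and Tnf at 2.53 ± 0.876, with Il6 and Il12b at 0. Neighbours in that order from Il1bos to Tnf lay within each other's spread. In vehicle M0, Gm16712 (1076 ± 38.4) and Gm14023 (119 ± 44.0) again stood first, and Il1a at 15.2 ± 8.50 was the cytokine with the highest mean, with a spread that overlapped that of Ebi3 at 6.62 ± 2.07.

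No effect of ISRIB was called for any of the 10 genes, of which 4 had counts too low for the model. The model called 0 of the 6 tested genes in M1, 0 in M0 and 0 for the interaction of ISRIB with polarization, against 0% of all 2356 genes in each of these comparisons. At an unadjusted p under 0.05, edgeR counted 134, 143 and 167 of all genes and 0, 1 and 0 of the 6. DESeq2 called 0, 3 and 0 of all genes and none of the 6. In M1 the log2 fold change of ISRIB over vehicle was -0.04 for Gm14023 (95% interval -0.38 to 0.30), 0.43 for Il1b (-0.94 to 1.80), 0.49 for Il1bos (-0.78 to 1.75), 0.73 for Il1rn (-0.60 to 2.05) and -0.64 for Il1a (-2.05 to 0.77). The interval was narrow for Gm14023 and wide for the 4 genes with few counts. A difference in those 4 was not detectable with these counts unless it was large.

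Gm16712 was the gene closest to a difference. Its log2 fold change under ISRIB was 0.20 ± 0.10 in M1 (edgeR adjusted p = 0.831, and 0.0530 before adjustment) and 0.22 ± 0.10 in M0 (edgeR adjusted p = 0.731, and 0.0376 before adjustment). All 3 ISRIB libraries lay above all 3 vehicle libraries in each state, at 16362 to 17893 against 12855 to 16295 CPM in M1 and 2276 to 2702 against 2031 to 2181 CPM in M0. The background for such a lack of overlap was 5.39% of tested genes in M1 and 5.56% in M0. None of the 10 lay lower under ISRIB without overlap, against 6.20% of tested genes in M1 and 5.73% in M0. Il1b in M1 was likewise higher in all 3 ISRIB libraries, at 53.9 to 58.4 against 30.8 to 48.1 CPM, with an edgeR p of 0.525 before adjustment. A lack of overlap between 3 and 3 libraries fixes the exact permutation p at 0.1, the smallest value possible, so that test adds nothing in these 3 cases. It gave 0.2 for Tnf in M1 (15.5 ± 9.46 against 4.15 ± 1.44 CPM).

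**Figure D4:**
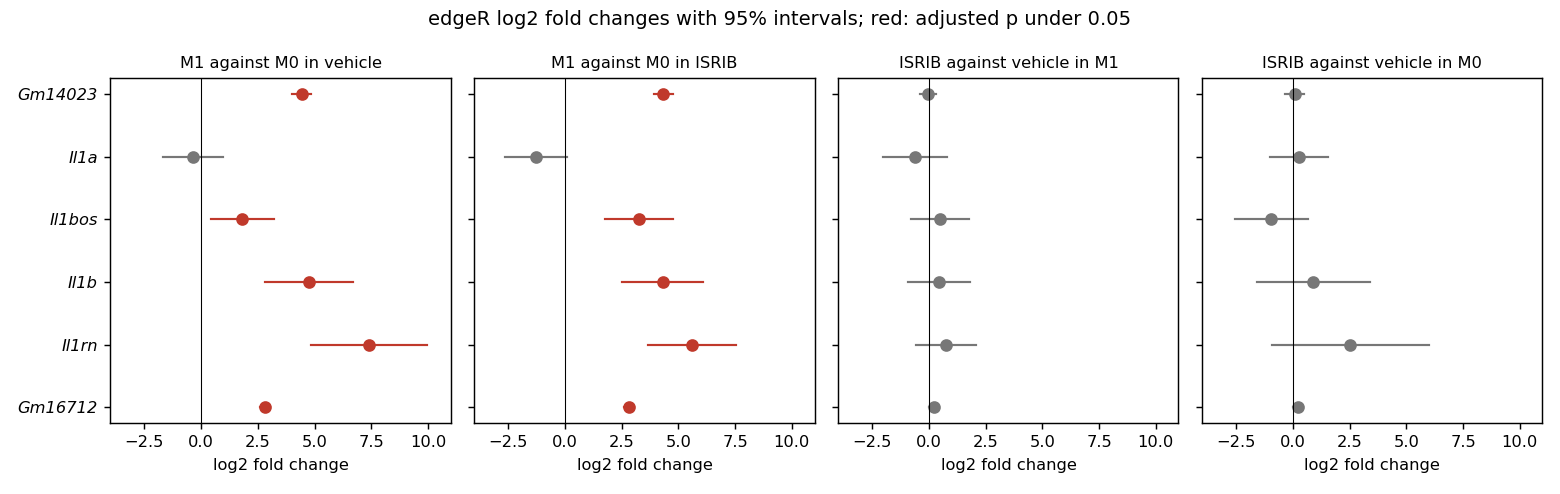
Log2 fold changes (horizontal axis) of the 6 genes with enough counts, in 4 comparisons, as points with 95% intervals from edgeR, red where the adjusted p is under 0.05. All but Il1a are red in both M1 against M0 panels, and no gene is red in the ISRIB panels. The Il1rn value under vehicle is fitted against M0 libraries at 0 and is no measure of size.

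The surrounding pathway was followed in 95 genes of 6 lists, of which 94 were in the table and 22 had no count in any library. Only 14 passed the filter, so that 81 could not be tested. Under vehicle 11 of the 14 rose in M1 and 1 fell, where 24.3% of all tested genes rose and 20.5% fell, and under ISRIB 7 rose and none fell, where 23.9% rose and 20.9% fell. For 8 of the 14 the M0 libraries alone would not have met the filter on low counts, so that a count of rises among tested genes is partly set by the filter and is given as a description. None was called in a comparison of ISRIB with vehicle or in the interaction, so the lower count under ISRIB is not shown to be a difference.

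Of 10 interleukin 1 maturation genes 8 were not tested, and the other 2, which met the filter through their M1 libraries, rose under vehicle. Casp1, the protease that cleaves the interleukin 1β precursor, went from 0, 0 and 1 counts in vehicle M0 to 22, 16 and 10 in vehicle M1, a ratio of scaled counts of 63.4 with a counting interval of 10.9 to 2558 (edgeR adjusted p = 0.000143). Under ISRIB, with no M0 counts, its M1 mean was 8.89-fold the floor of 3 counts per library (adjusted p = 1.98e-05). Aim2, a sensor of cytosolic DNA, had a ratio of 21.1 under vehicle (counting interval 6.82 to 106, adjusted p = 0.00467), and under ISRIB its log2 fold change of 1.89 ± 0.99 was not called (adjusted p = 0.125). Nlrp3, the inflammasome sensor, averaged 2.33 counts and was not tested, and the receptor gene Il1r1 had no counts.

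Of 11 TNF ligands and receptors 4 were tested, and Cd40, Tnfsf9 and Tnfrsf1b rose under both treatments, the first 2 having met the filter through M1 libraries only. Cd40, the costimulatory receptor, had no vehicle M0 counts and 12, 10 and 2 in vehicle M1 (edgeR adjusted p = 0.00948). Its vehicle M1 mean of 20.2 ± 13.5 CPM (SD, n = 3) was 3.56-fold the floor, although the lowest library had only 2 counts. Tnfsf9, which encodes the 4-1BB ligand, had a vehicle ratio of 30.8 (counting interval 10.1 to 153, adjusted p = 0.000312). Tnfrsf1b, the gene for TNF receptor 2, rose by 2.55 ± 0.43 on the log2 scale (adjusted p = 2.45e-05). Adam17, the protease that sheds TNF from the membrane, fell by 0.64 on the log2 scale under vehicle (SE 0.22, adjusted p = 0.0178), and shares exonic bases with Iah1 on the other strand.

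Of 17 inhibitors and mRNA decay factors 12 were not tested, and the other 5 rose under vehicle, 3 of them under ISRIB too. For 4 of the 5, all but Dusp1, the M0 libraries alone would not have met the filter. Nfkbia, the gene for IκBα, had no vehicle M0 counts and 6, 6 and 24 in vehicle M1 (edgeR adjusted p = 0.000606). Its vehicle M1 mean of 29.4 ± 24.5 CPM (SD, n = 3) was 5.18-fold the floor. Socs3, a suppressor of cytokine signalling, went from 0 to 8, 11 and 6 counts, with a mean 3.69-fold the floor (adjusted p = 0.00292). Cflar, which inhibits caspase-8, had a vehicle ratio of 46.3 (counting interval 12.3 to 390, adjusted p = 0.000149). Zfp36, whose product promotes decay of Tnf mRNA, went from 0, 0 and 1 counts to 2, 7 and 4, a ratio of 17.2 (2.58 to 730, adjusted p = 0.0221). Its mean was 10.9 ± 6.58 CPM in vehicle M1 and 14.4 ± 8.63 CPM in ISRIB M0 (SD, n = 3). Dusp1, a phosphatase that acts on MAP kinases, rose by 2.31 ± 0.60 on the log2 scale (adjusted p = 0.00275). Zfp36 and Dusp1 were not called under ISRIB (1.40 ± 0.86, adjusted p = 0.189, and 1.04 ± 0.53, adjusted p = 0.116).

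Of 25 receptor signalling and NF-kB genes only Nfkb2 was tested, and it rose by 0.88 ± 0.19 under vehicle (edgeR adjusted p = 0.000529) and stood at 0.29 ± 0.19 under ISRIB (adjusted p = 0.227). Psd lies opposite it with 1548 counts on average. The remaining tested genes, Il18bp, a decoy for interleukin 18, and Il6ra, the interleukin 6 receptor chain, were not called in any comparison. Numa1 lies opposite Il18bp with 508 counts on average. Other opposite-strand exon overlaps were those of Il6ra with Gm42809, Tnfsf9 with Gm11110, Zfp36 with Gm44710 and Dusp1 with Ergic1. The 22 listed genes with an opposite-strand exon overlap held 4063 counts and the 72 without one 1635. Most counts of the 22 were those of Nfkb2 and Adam17, with 150 and 108 on average per library. The median of the mean counts was 2.125 among the 22 and 0.667 among the 72.

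**Figure D5:**
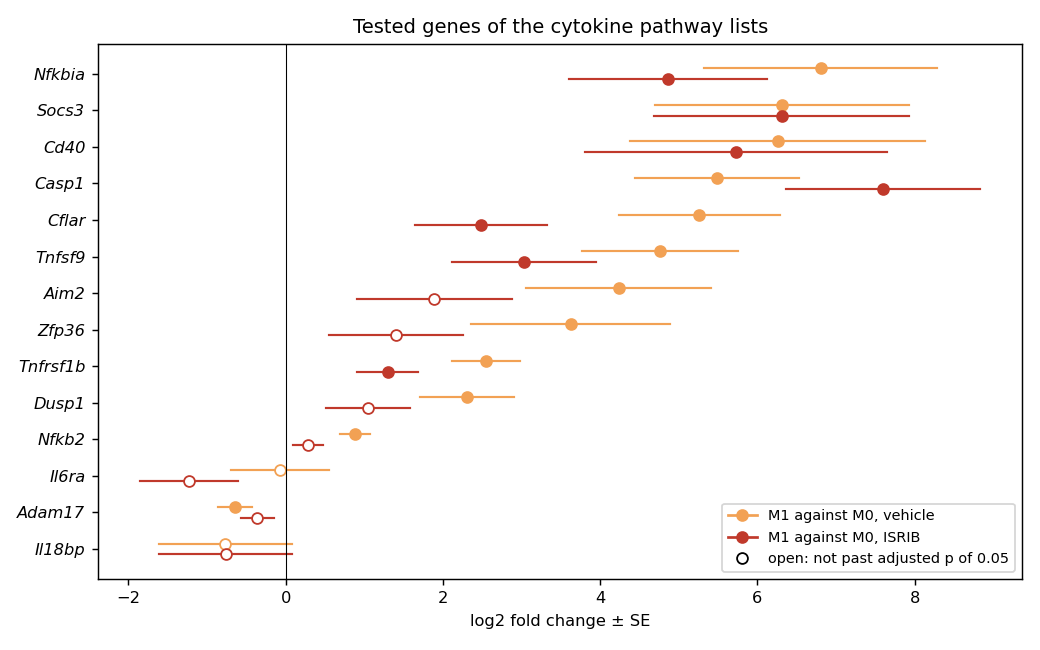
Log2 fold changes of M1 against M0 (horizontal axis, ± SE) for the 14 tested genes of the pathway lists, under vehicle (orange) and ISRIB (red), with open symbols where the edgeR adjusted p was not under 0.05. Under vehicle, 11 filled points lie to the right of 0 and that of Adam17 to the left. Points of Nfkbia, Socs3, Cd40 and Casp1 fitted against M0 groups at 0 depend on the prior count.

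The genes most like each tested gene were ranked by Pearson's r in log2 CPM over the 12 libraries, among 835 or 836 genes whose mean was 50 counts or more. The 12 libraries form both states, so a high r mostly restates the step between them, and the values are descriptions only. Closest to Gm14023 were Oraov1 (r = 0.996), AV051173 and Ifit2, an interferon-induced gene. Gm16712 was followed by Mir6381 (r = 0.995), which overlaps Gbp2 on the other strand, Med7 and AV051173. Il1b was closest to Nelfe (r = 0.980), Tor1aip2 and Ccdc167, and Il1bos to Fth1 (r = 0.927), the ferritin heavy chain gene, Gm10658 and Casz1. For Il1rn these were Klf3 (r = 0.962), Parp9 and Tor1aip1. Il1a had the lowest such values, with 4930526I15Rik (r = 0.852), 1700047A11Rik and Nr2c2ap. Of these, Med7 overlaps 2310031A07Rik, Tor1aip2 overlaps Tor1aip1, Ccdc167 overlaps Cmtr1 and Gm28043, Gm10658 overlaps Ptpn9, Casz1 overlaps Gm13205, Klf3 overlaps Gm20033, Parp9 overlaps Dtx3l, 1700047A11Rik overlaps Hook3 and Nr2c2ap overlaps Rfxank, each on the opposite strand.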

How the data were processed

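Polyadenylated RNA of 12 samples was sequenced as strand-specific TruSeq libraries, per the labels' protocols. The submitters' processing notes name FastQC, HTSeq, DESeq2 and the genome build mm10. The authors deposited whole-number counts per gene symbol and log2 values of the same symbols. Compared between both tables, a deposited log2 value equals the log2 of 1 plus the count over a size factor of its library. The counter's strand setting is not given in the sources used here.

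Analysis used edgeR 4.0.16 under R 4.3.3: TMM scaling, filterByExpr (minimum count 10, minimum total 15), a mean per group over all 12 samples with no replicate block, glmQLFTest and Benjamini-Hochberg adjustment over 2356 genes, which held 97.6% of counts (common biological coefficient of variation 0.275). The script was tested on simulated data. Standard errors are those implied by the test statistic. Exact permutation tests compared TMM-scaled CPM. TMM factors were 1.07 to 1.15 in M0 and 0.872 to 0.930 in M1, so that scaling by total counts alone would shift each M1 against M0 log2 fold change by -0.30 under vehicle and -0.29 under ISRIB. Floors are 3 counts per library and, like the counting intervals, take each count as a separate event. Folds over a floor use the mean of the M1 libraries and leave out their spread.

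The 10 genes, the pathway and marker lists and the naming rules were chosen with earlier results of these data known. Named pathway genes were those past the threshold in M1 against M0, up to 20 by size. The interleukin 36 genes were matched under older symbols, and Il37 had no row. Samples with the same replicate number deviated together with correlations of -0.06 to 0.11 over 12 pairs, 2 of them above 0.1. They correlated best with their own number in 20 of 36 cases, with 3 numbers to match in each. The labels do not say what a number stands for, so the main test used no pairing. A batch or animal shared by a number was not tested, and the replicate block is given as an alternative. Replicates differed by more than sampling noise (chi-square per degree of freedom 4.46 to 7.06). Alternatives were DESeq2 1.42.0 (size factors and Wald test), limma 3.58.1 on the deposited log2 values, total-count scaling, normalized counts from the deposited table, no filter, only the compared groups, the replicate block, and each library left out. Halving the counts was added after seeing the data.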

Additional observations from a re-analysis of the deposited data

How the results depend on the processing

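The 5 genes called in M1 against M0 under ISRIB held under every alternative run, and so did the absence of calls among the 10 genes in all 3 ISRIB comparisons. Over all genes some alternatives did call a few. With no filter, 0, 10 and 9 of 10978 were called in M1, in M0 and for the interaction. The replicate block called 3 for the interaction, and leaving out replicate 1 of ISRIB M0 called 6 in M0. Under vehicle, 4 to 5 were called when single libraries were left out, 4 with no filter (Il1bos lost) and 4 with only the compared groups, where Il1rn was not tested. With the replicate block, 5, 5, 0, 0 and 0 of the 6 were called in the 5 comparisons, no call on a gene in a pairwise comparison changed, and the Il1a difference over both treatments kept its value of -14.1 CPM with adjusted p = 0.0397. Same-numbered samples correlated best with their own number in 20 of 36 cases, with 3 numbers to match in each. Scaling by total counts gave -19.3 CPM for Il1a (adjusted p = 0.0278), and leaving out all libraries of 1 number gave -18.1 to -9.59 CPM. Halved counts gave 5, 5, 0, 0 and 0 calls.

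Log2 fold changes that turned sign when single libraries were left out were all uncalled. They ranged from -0.71 to 0.12 for Il1a in M1 against M0 under vehicle, from -0.15 to 0.023 for ISRIB in M1 and -0.20 to 0.43 for ISRIB in M0 at Gm14023, and from -0.074 to 0.75 for ISRIB in M0 at Il1a. The summed Gm14023 and Il1a pair ranged from -0.15 to 0.018 in M1 and from -0.10 to 0.35 in M0. The causes were not tested. Ebi3, Tnf, Il6 and Il12b were below the filter, with 30, 25, 6 and 2 counts over all M1 libraries, and whether depth or the strand setting of the counting sets these values was not tested.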

Other observations

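Small counts in the deposited table were more often even than odd. Over all symbols and libraries the value 1 occurred 6991 times, the value 2 occurred 12645 times, the value 3 occurred 2694 times and the value 4 occurred 6834 times, and 66.3% of values from 1 to 10 were even. The share was 60.4% among symbols with an opposite-strand exon overlap and 69.9% among those without one.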
